A study of Mus musculus with 18 samples.

Results

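Runx1, Runx2, Runx3 and Cbfb, which encode the 3 Runx transcription factors of the mouse and their shared partner protein, were followed in 18 RNA libraries of mammary organoids. The genes were matched by symbol in the deposited count table. They are 4 of its 55536 genes, and each of the 4 was among the 17092 genes with enough counts to be tested. They were chosen by a measured value, the Runx3 count, which rose when a Wnt agonist and R-spondin were added to EGF. The comparison of the EGF-WR with the EGF medium, both named below, therefore chose them and is described without a test. The comparisons of Runx3 with the third medium share libraries with it and are described in the same way.

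Organoids were grown from mammary glands of C57BL/6 mice aged 6 to 7 weeks. The mice were either wild type (WT) or lacked RasGRP1 (RasGRP1-/-, KO), an exchange factor that loads Ras proteins with GTP. Every culture was embedded in matrigel, a gel of basement membrane proteins. All groups shared a base of DMEM/F12 plus insulin, transferrin and selenium, and growth factors were present for 5 days. The EGF medium held 2.5 nM EGF. The WR medium held 0.1 nM NGS-Wnt, a surrogate Wnt ligand, and 8.3 nM Rspo2, an R-spondin that keeps Wnt receptors at the cell surface. The EGF-WR medium held all 3 factors at these doses. Each of the 6 groups had 3 libraries, called biological replicates by the submitters, and the batch given in the labels equals the replicate number, so each of the 3 batches held 1 library of every group. No medium without a growth factor was analysed here, so each medium is compared with another medium and not with an untreated state.

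Runx proteins bind DNA through the Runt domain, at sites with the core TGTGGT or TGCGGT, and can activate or repress their targets. Cbfb does not bind DNA itself but joins the Runt domain and strengthens its binding. Runx1 is best known from blood stem cells and is also made by mammary epithelium, Runx2 is the master factor of bone formation and is also found in mammary epithelium, and Runx3 is known from T cells, sensory neurons and epithelia. Runx1 and Runx3 are each transcribed from a distal and a proximal start. For Runx2 only the promoter window given below was read, which does not show that the gene has no other start. Gene counts add up the transcripts from all starts of a gene, so they do not show which start was used.

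The promoter windows of the 2 genes whose levels differed most between the media are shown here, so that the letters Runx proteins themselves bind can be seen in them. The 250 bases before each start were taken from RefSeq on GRCm38.p6 and are printed 5′ to 3′ on the strand of the gene, with matches to TGTGGT on either strand in capitals. The distal window of Runx3 lies at chr4:135120395-135120644 on the plus strand, the proximal one at chr4:135152295-135152544 on the plus strand, and the Runx2 window at chr17:44814628-44814877 on the minus strand.
Runx3 distal: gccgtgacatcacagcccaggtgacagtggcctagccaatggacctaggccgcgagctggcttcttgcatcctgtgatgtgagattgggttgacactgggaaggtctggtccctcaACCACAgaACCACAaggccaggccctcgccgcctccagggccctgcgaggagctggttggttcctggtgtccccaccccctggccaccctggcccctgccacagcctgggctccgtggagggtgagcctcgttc
Runx3 proximal: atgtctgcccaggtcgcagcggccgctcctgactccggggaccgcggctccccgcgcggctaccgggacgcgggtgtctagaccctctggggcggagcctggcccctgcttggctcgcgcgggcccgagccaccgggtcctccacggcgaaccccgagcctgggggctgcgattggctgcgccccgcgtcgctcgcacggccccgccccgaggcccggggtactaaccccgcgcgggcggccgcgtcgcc
Runx2: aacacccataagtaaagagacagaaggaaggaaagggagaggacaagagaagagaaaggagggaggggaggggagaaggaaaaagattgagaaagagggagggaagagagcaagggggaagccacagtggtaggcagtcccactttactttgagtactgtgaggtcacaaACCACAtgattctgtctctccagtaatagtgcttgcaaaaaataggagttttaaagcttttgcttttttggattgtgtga

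The Runx3 distal window held 2 matches to TGTGGT, both on the opposite strand and so read as ACCACA, at 134 and 126 bases before the start. The Runx2 window held 1 such match, 80 bases before its start, and any other start of Runx2 was not read. The Runx3 proximal window, both RefSeq windows of Runx1 and the Cbfb window held no TGTGGT and no TGCGGT. Of 32851 mouse promoter windows of the same length, 14.05% held TGTGGT on either strand, 1.272% held it at least 2 times, and 5.099% held TGCGGT. The Tcf/Lef letters CTTTGAT and CTTTGAA, present on either strand in 3.205% and 4.456% of all windows, were in none of the 6 windows of the 4 genes. A match is a string of letters and not a measured binding site, and no binding was measured here.

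Total counts ran from 24290097 to 31269899 per library, and mitochondrial genes took 1.28% to 2.54% of them. The summed level of 8 epithelial markers (Epcam, Cdh1 and 6 keratins) lay between 6220 and 11835 CPM (counts scaled by the effective size of each library), and none of the 8 was at 0 in any group. The label of mammary epithelial cells was thus met by its defining markers. By medium the sum was 9530 to 11835 CPM in WT WR, 8017 to 9474.5 in WT EGF-WR and 7167 to 8117 in WT EGF. In KO it was 8943 to 11276, 7547 to 10083.5 and 6220 to 9590 CPM. In EGF against WR 4 of the 8 were called lower and 1 higher in WT, and 3 lower and 2 higher in KO. Of all genes 15.4% and 13.5% were called there. The part of this shift in the Runx levels was not tested. Stromal markers were present too, with 438 to 2901 CPM summed over 10 fibroblast genes and 86.2 to 629 CPM over 8 endothelial genes. Rasgrp1, the deleted gene, had 6 to 28 counts in WT libraries and 0 to 9 in KO libraries. Averaged over the media it was lower in KO by a log2 difference of -2.71 ± 0.72 (SE), which was not called (edgeR quasi-likelihood test, Benjamini-Hochberg adjusted p = 0.173). The labels do not give the deleted part of the gene, so the residual counts cannot be placed inside or outside it.

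Runx3 was the member that differed most between media. Its level was high in the WR medium, intermediate in EGF-WR and low in EGF, in both genotypes. In WT organoids, batches 1, 2 and 3 gave 20.1, 43.4 and 16.1 CPM in WR, 6.10, 18.9 and 5.81 CPM in EGF-WR, and 1.37, 1.26 and 1.08 CPM in EGF. The 3 EGF libraries were close to each other and below every other WT library, while WR and EGF-WR overlapped through the batch 2 library of EGF-WR, which stood above the batch 3 library of WR. In KO organoids the same batches gave 28.1, 22.0 and 18.4 CPM in WR, 5.57, 15.3 and 5.65 CPM in EGF-WR, and 0.741, 3.09 and 2.13 CPM in EGF. The 3 KO media did not overlap.

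**Figure D1:**
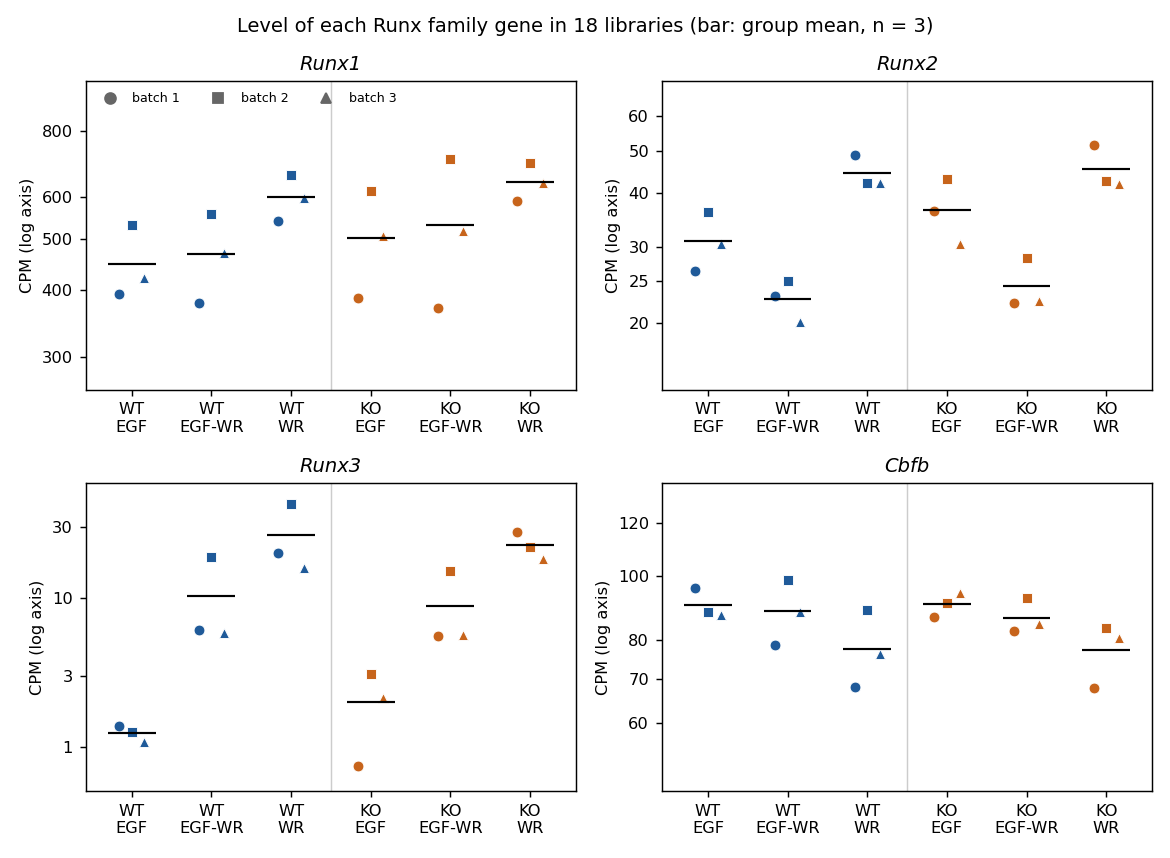
Level of each gene in the 18 libraries, in CPM on a log axis, by genotype and medium (blue WT, orange KO, shape for the batch, bar for the mean of 3 libraries). Runx3 sits between 0.741 and 3.09 CPM in the 6 EGF libraries and between 16.1 and 43.4 CPM in the 6 WR libraries, while the other 3 genes span much narrower ranges.

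The fewest reads lay behind the EGF values. Runx3 had 41, 36 and 33 counts in the WT EGF libraries and 18, 72 and 62 in the KO ones, against 485 to 1257 counts in the 6 WR libraries. The spread among replicates was also widest for Runx3, with a pooled SD within groups of 0.74 on the log2 scale, against 0.29 for Runx1, 0.19 for Runx2 and 0.13 for Cbfb. Batch 2 was the high batch for Runx3, standing above its group's mean in 5 of 6 groups and by 0.62 log2 units on average.

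Addition of NGS-Wnt and Rspo2 to EGF, the contrast that chose the genes, went with a 7.26-fold higher Runx3 level in WT (log2 difference 2.86 ± 0.42 SE) and a 4.198-fold higher level in KO (2.07 ± 0.41). Batch by batch the log2 difference was 2.10, 3.83 and 2.35 in WT and 2.80, 2.28 and 1.38 in KO. That all 6 pairs were positive is part of the rise that chose the gene and is no support for it. Of all genes tested, 15.6% were called in this contrast in WT and 11.6% in KO, and nothing is read from that for Runx3. Removal of Wnt agonist and R-spondin together with addition of EGF, EGF against WR, went with the widest gap, a log2 difference of -4.28 ± 0.43 in WT and -3.66 ± 0.41 in KO. Addition of EGF to WR went with a lower Runx3 level as well, by -1.42 ± 0.36 in WT and -1.59 ± 0.36 in KO, with all 6 pairs of the same batch negative (-1.71, -1.19 and -1.46 in WT, -2.32, -0.52 and -1.69 in KO). The EGF-WR libraries thus stood between the others, and each of these contrasts shares libraries with the other 2.

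In order of the mean, Runx3 was at 26.5 ± 14.7 CPM (SD, n = 3) in WT WR, 22.9 ± 4.91 in KO WR, 10.3 ± 7.50 in WT EGF-WR, 8.84 ± 5.60 in KO EGF-WR, 1.99 ± 1.18 in KO EGF and 1.24 ± 0.147 in WT EGF. Of the 5 neighbouring pairs in this order, only KO EGF-WR and KO EGF had ranges that did not overlap. The overlap of KO WR with WT EGF-WR comes from a batch 3 library against a batch 2 library, and within each batch and genotype WR stood above EGF-WR. The lack of overlap with EGF is part of what chose the gene.

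T cells, natural killer cells and dendritic cells are known to make Runx3, so their markers were read in the same libraries. Cd3d, Cd8b1, Ms4a1, Ncr1 and Gzma had 0 counts in all 18 libraries and Cd3e had 1 count in all. The 18 lymphocyte and natural killer genes summed to 6.11 to 6.56 CPM in WT WR, 3.16 to 5.49 in WT EGF-WR and 4.42 to 9.43 in WT EGF. In KO they summed to 4.12 to 6.58, 3.46 to 6.11 and 3.22 to 5.85 CPM in the same media. The WR and EGF ranges of this sum overlapped in each genotype. The EGF-WR range lay wholly below the WR range in WT and overlapped it in KO. The leading genes of the sum were Lck, a kinase, and the receptor constant genes Trac and Trbc2, and Cd4 reached 5.47 CPM in its highest library. Of 8 dendritic and Langerhans cell genes, Cd207, Xcr1 and Cd209a had 0 counts in all libraries, Flt3 and Ccr7 had 8 and 17 counts, and Zbtb46, a zinc finger factor, had 2687 counts and was above 0 in every library. The sum of the 8 genes ranged from 1.84 to 14.1 CPM over all groups and came mostly from Zbtb46, at 5.29 CPM on average. Of 12 myeloid genes, Lyz2, Cd68 and Csf1r led with 12481, 3369 and 1519 counts, and Ptprc, the pan-leukocyte gene, had 291. The myeloid sum was 37.4 to 75.1 CPM in WT WR, 9.05 to 29.9 in WT EGF-WR and 19.3 to 163 in WT EGF, and 28.01 to 48.0, 10.8 to 24.7 and 20.8 to 66.9 CPM in KO. The part of these cells in the Runx3 levels was not tested.

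Runx2 was highest in WR and lowest in EGF-WR in both genotypes, an order that differs from that of Runx3. WT libraries of batches 1, 2 and 3 gave 48.9, 42.0 and 42.1 CPM in WR, 23.1, 25.03 and 20.1 CPM in EGF-WR, and 26.5, 36.1 and 30.5 CPM in EGF. KO libraries gave 51.6, 42.5 and 42.0 CPM in WR, 22.3, 28.4 and 22.6 CPM in EGF-WR, and 36.2, 42.9 and 30.4 CPM in EGF. The 3 WT media did not overlap, whereas in KO the batch 2 library in EGF was at the level of the WR libraries.

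With EGF added to WR, Runx2 fell by a log2 difference of -0.97 ± 0.13 (SE) in WT (1.96-fold, edgeR adjusted p = 8.92e-05) and -0.90 ± 0.13 in KO (1.87-fold, edgeR adjusted p = 1.64e-04). All 3 batches were negative in both genotypes, and both calls were kept under every alternative fit and without any single library or batch. In this contrast 10.7% of all genes were called in WT and 12.7% in KO. In EGF against WR, where 15.4% of genes were called in WT and 13.5% in KO, Runx2 was lower in WT by -0.52 ± 0.13 (edgeR adjusted p = 0.0081). The value in KO was -0.33 ± 0.13 (edgeR adjusted p = 0.105), not called. The 2 contrasts share the WR libraries.

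The WT call in EGF against WR rested on few libraries. The edgeR adjusted p was 0.0552 without the batch 1 library in WR, 0.0603 without the batch 1 library in EGF, 0.154 without batch 1, 0.113 without batch 3, and 0.0809 in the fit without the batch term. The KO value was called without the batch 2 library in WR, at an edgeR adjusted p of 0.0386, and without batch 2, at 0.0341. Between EGF-WR and EGF, described without a test, the log2 difference of Runx2 was -0.45 ± 0.13 in WT and -0.58 ± 0.13 in KO, and the groups did not overlap.

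Stromal marker levels moved in the same direction as Runx2 between EGF-WR and WR. Of 8 endothelial markers 7 were called lower in EGF-WR than in WR in each genotype, and of 6 adipocyte markers 6 were, where 10.7% of all genes were called in either direction in WT and 12.7% in KO. Of 10 fibroblast markers 5 were called lower in WT and 4 in KO, and none of these 3 lists had a gene called higher in this contrast. In EGF against WR, where Runx2 was called lower in WT, no endothelial and no adipocyte marker was called in either genotype. Of the fibroblast markers 3 were called higher and 1 lower there in WT, and 1 higher and 1 lower in KO. The share of all genes called there was 15.4% in WT and 13.5% in KO. Summed endothelial levels were 273 to 409 CPM in WT WR, 86.2 to 191 in WT EGF-WR and 388 to 472 in WT EGF, and in KO 265 to 629, 149 to 219 and 296 to 411. Summed adipocyte levels were 316 to 1112, 40.1 to 270 and 304 to 752 CPM in the same WT media, and 221 to 1131, 44.0 to 229 and 191 to 680 CPM in KO. Summed fibroblast levels were 705 to 2486, 438 to 1195 and 934 to 2901 CPM in WT and 999 to 1973, 532 to 1152 and 775 to 2167 CPM in KO. The part of these cells in the Runx2 levels was not tested. In RNA from whole organoids, fewer cells of a type and less RNA per cell cannot be told apart. Of 8 bone and cartilage markers, Ibsp and Sost had 0 counts in all libraries, Bglap 29 and Sp7 21 in all, while Dmp1, Acan, Col2a1 and Comp had 3032, 2867, 3145 and 1620 counts and were above 0 in every library. Of these 4 tested markers 3 were called higher in EGF than in WR in each genotype, with none lower in WT and 1 lower in KO. In that contrast 15.4% of all genes were called in either direction in WT and 13.5% in KO. A list of 4 genes is small, and its relation to the Runx2 levels was not tested. The list summed to 5.49 to 23.5 CPM in WT WR and 15.3 to 41.0 CPM in WT EGF, and to 6.28 to 41.4 and 16.3 to 45.9 CPM in KO.

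Runx1 was by far the most abundant member in counts, with 9386 to 19289 per library. WT libraries of batches 1, 2 and 3 gave 541, 659 and 598 CPM in WR, 378, 556 and 470 CPM in EGF-WR, and 393, 531 and 422 CPM in EGF. KO libraries gave 589, 695 and 637 CPM in WR, 371, 709 and 517 CPM in EGF-WR, and 387, 615 and 506 CPM in EGF. Batch 1 was the low library and batch 2 the high one in each of the 6 groups, and the WR level was the highest of the 3 media in every batch except batch 2 of KO.

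With the batch term in the fit, Runx1 was lower in EGF than in WR by -0.43 ± 0.097 in WT (1.34-fold, edgeR adjusted p = 0.00514) and by -0.37 ± 0.097 in KO (1.297-fold, edgeR adjusted p = 0.0141). It was also lower in EGF-WR than in WR, by -0.37 ± 0.097 in WT (edgeR adjusted p = 0.0183) and by -0.31 ± 0.097 in KO (edgeR adjusted p = 0.0458). Of these 4 pairs of groups, only WT EGF and WT WR did not overlap. In KO the batch 2 pair of EGF-WR and WR went the other way, with a log2 difference of 0.028. Between EGF-WR and EGF, described without a test, the log2 difference was 0.055 ± 0.097 in WT and 0.067 ± 0.097 in KO.

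The 4 Runx1 calls depended on the batch term. Without it the edgeR adjusted p was 0.392 in WT and 0.553 in KO for EGF against WR, and 0.594 and 0.705 for EGF-WR against WR, at log2 differences of -0.42, -0.35, -0.36 and -0.27. With the batch term, the call for EGF-WR against WR was also lost in WT when the batch 1 or 3 library in WR or any library in EGF-WR was left out (edgeR adjusted p 0.0552 to 0.112). In KO it was lost without the batch 1 or 3 library of either medium (0.0979 to 0.271). The KO call for EGF against WR was lost without the batch 1 library in WR (0.0962) or in EGF (0.083). Leaving out a whole batch ended the WT call for EGF against WR without batch 3 (0.167), and the other 3 calls without batch 1 or batch 3.

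Cbfb differed least. WT libraries of batches 1, 2 and 3 gave 68.1, 88.8 and 76.3 CPM in WR, 78.6, 98.7 and 88.4 CPM in EGF-WR, and 95.9, 88.3 and 87.2 CPM in EGF. KO libraries gave 67.7, 83.5 and 80.5 CPM in WR, 82.5, 92.6 and 84.6 CPM in EGF-WR, and 86.7, 90.9 and 94.2 CPM in EGF. The means were lowest in WR in both genotypes, and the KO EGF libraries lay above the KO WR libraries without overlap.

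No Cbfb contrast was called. EGF against WR gave a log2 difference of 0.23 ± 0.085 in WT (edgeR adjusted p = 0.081, 95% interval 0.051 to 0.41) and 0.24 ± 0.085 in KO (edgeR adjusted p = 0.0795, 0.056 to 0.41). The WT value was called without the batch 2 library in EGF (edgeR adjusted p = 0.0399) and without batch 2 (0.0268). EGF-WR against WR gave 0.19 ± 0.085 in WT and 0.17 ± 0.085 in KO (edgeR adjusted p = 0.191 and 0.235). Between EGF-WR and EGF, described without a test, it was -0.041 ± 0.085 in WT and -0.068 ± 0.085 in KO.

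**Figure D2:**
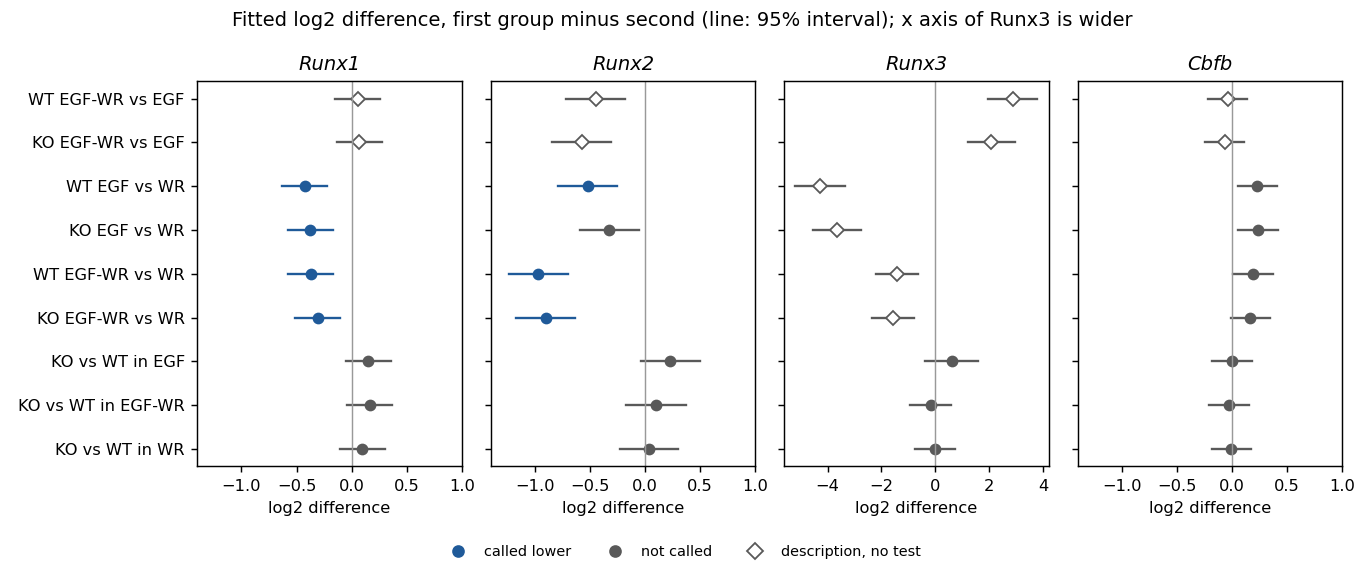
Fitted log2 difference (x axis, first group minus second) of each gene in 9 contrasts, with its 95% interval; filled blue points were called lower, filled grey points were not called and open diamonds were not tested. Runx1 was called lower in all 4 contrasts with WR and Runx2 in 3 of them, Cbfb in none, and Runx3 has an x axis of its own with values from -4.28 to 2.86. Intervals at open diamonds are descriptions and no test, since these contrasts are, or share libraries with, the one that chose the genes.

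To compare levels between genes, CPM was divided by the length of the exon union in kb (GENCODE M21), so the next values are CPM per kb. In WT WR, Runx1 stood at 49.8 ± 4.90, Cbfb at 22.3 ± 2.99, Runx3 at 5.30 ± 2.95 and Runx2 at 5.02 ± 0.445 (SD, n = 3). In WT EGF, Runx1 stood at 37.3 ± 6.04, Cbfb at 26.0 ± 1.36, Runx2 at 3.51 ± 0.549 and Runx3 at 0.247 ± 0.029. The WT WR mean of Runx3 was thus near that of Runx2, but this rests on the batch 2 library (8.67 for Runx3 against 4.75 for Runx2). In batches 1 and 3 of WT WR Runx3 was lower, at 4.01 against 5.53 and 3.22 against 4.77. In KO WR Runx3 was at 4.57 ± 0.981 and Runx2 at 5.13 ± 0.616, with Runx3 below Runx2 in each library. In EGF Runx3 was the lowest of the 4 genes.

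As a share of the summed CPM per kb of the 3 factors, Runx3 made up 8.55% ± 3.72 in WT WR, 4.45% ± 2.38 in WT EGF-WR and 0.613% ± 0.130 in WT EGF. In KO the shares were 7.29% ± 1.77, 3.45% ± 1.15 and 0.808% ± 0.357. Runx1 made up 83.0% to 90.8% of the sum in the group means. The ratio of Cbfb to the summed factors was 0.371 ± 0.011 in WT WR, 0.591 ± 0.052 in WT EGF-WR and 0.646 ± 0.121 in WT EGF, and 0.352 ± 0.028, 0.539 ± 0.140 and 0.578 ± 0.112 in KO. The WR libraries had the lowest ratios in both genotypes, without overlap with the other media.

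**Figure D3:**
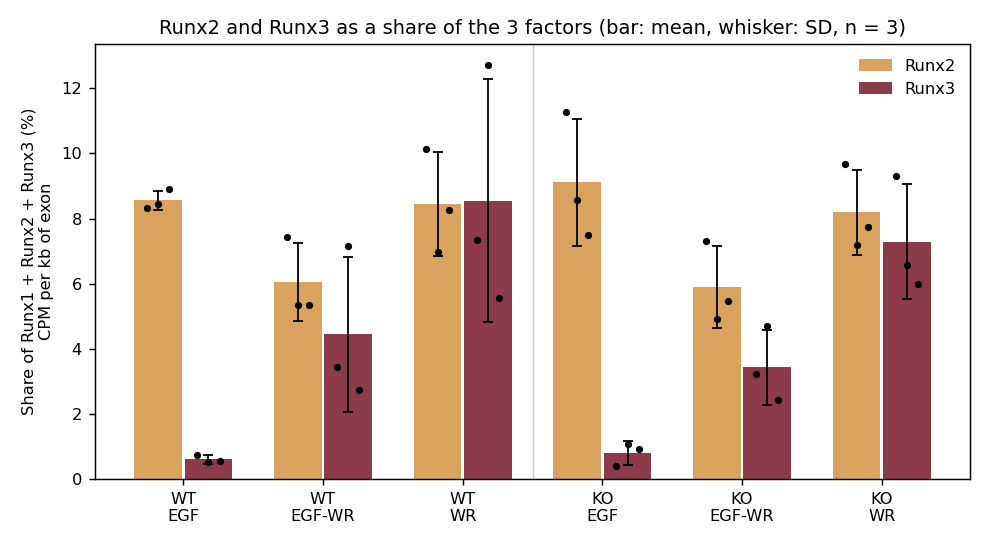
Share of Runx2 and Runx3 in the summed CPM per kb of the 3 Runx factors, in percent, by genotype and medium (bar for the mean, whisker for the SD, points for the 3 libraries). The Runx3 share is between 5.58% and 12.7% in WT WR libraries and at most 1.09% in every EGF library, while Runx2 shares overlap between EGF and WR.

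Loss of RasGRP1 was not followed by a called difference in any of the 4 genes. The share of all genes called in KO against WT was 0.0819% in WR, 0.0819% in EGF-WR, 0.0702% in EGF and 0.339% averaged over the media. Averaged over the media, the log2 difference of KO minus WT was 0.14 ± 0.23 for Runx3 (edgeR adjusted p = 0.869, 95% interval -0.35 to 0.62), 0.14 ± 0.056 for Runx1 (0.391, 0.020 to 0.26), 0.12 ± 0.073 for Runx2 (0.562, -0.034 to 0.27) and -0.013 ± 0.049 for Cbfb (0.957, -0.12 to 0.090). The interval for Runx3 was the widest of the 4. By medium, Runx3 differed by -0.019 ± 0.35 in WR, -0.18 ± 0.36 in EGF-WR and 0.61 ± 0.46 in EGF, at edgeR adjusted p of 0.995, 0.991 and 1, and its ranges overlapped in each medium.

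The response to medium was also compared between the genotypes. For Runx1, Runx2 and Cbfb the difference between KO and WT in the response of EGF against WR was 0.052 ± 0.14, 0.20 ± 0.18 and 0.0059 ± 0.12 on the log2 scale, and in EGF-WR against WR it was 0.065 ± 0.14, 0.067 ± 0.18 and -0.021 ± 0.12 (edgeR adjusted p = 1 for each). That Runx2 was called in WT and not in KO in EGF against WR is therefore no shown difference between the genotypes. For Runx3, described without a test, the KO response was smaller than the WT response by 0.79 ± 0.58 in EGF-WR against EGF, with a 95% interval of the KO minus WT difference from -2.04 to 0.46. With edgeR 0% of all genes were called in each of the 3 interactions. At an unadjusted p under 0.05 there were 356, 286 and 306 genes in EGF against WR, EGF-WR against WR and EGF-WR against EGF, and DESeq2 called 0, 1 and 0.

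The strand setting of the counting is not given in the sources used here, so genes that overlap a member on the other strand were read beside it (positions on GRCm38). Runx3, chr4:135120652-135177990 on the plus strand, overlaps the antisense gene Gm16224, which had 8 counts in all libraries. Its nearest tested neighbours with a symbol, Syf2 and Clic4, differed in EGF-WR against EGF by log2 differences of -0.021 and -0.23 in WT and 0.097 and -0.18 in KO, and neither was called. Runx2, chr17:44495987-44814797 on the minus strand, overlaps the 5′ part of Supt3 on the plus strand, a subunit of a histone acetyltransferase complex with 8760 counts in all, and the antisense gene Runx2os1 with 459. Supt3 was not called in EGF-WR against WR, at log2 differences of -0.27 ± 0.19 in WT and -0.12 ± 0.19 in KO (edgeR adjusted p = 0.481 and 0.779). In EGF against WR it was lower by values close to those of Runx2, at -0.55 ± 0.20 in WT and -0.45 ± 0.20 in KO, and was not called (edgeR adjusted p = 0.0708 and 0.156). Reads in the overlap of Runx2 and Supt3 cannot be told apart if counting ignored strand. Runx1, chr16:92601466-92826149 on the minus strand, overlaps the antisense gene Gm26626 with 138 counts, and Cbfb, chr8:105170674-105217989 on the plus strand, overlaps no antisense gene of the table.

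Over the 18 libraries, with batch means subtracted from log2 CPM, the genes most like Runx3 among 11177 genes with at least 4 CPM on average were Dsg1a, Glis1, Ppl, Cdk6 and Krt79, with Pearson's r of 0.974, 0.968, 0.962, 0.961 and 0.960. The points share the 6 groups and their libraries, so r describes a common order of the media and no p is given. Dsg1a, a desmosomal cadherin of the epidermis, averaged 23.9 CPM in WT WR, 4.38 in WT EGF-WR and 0.055 in WT EGF, and 12.9, 3.48 and 0.18 CPM in KO. At its EGF levels the log2 values depend on the prior count of 2 added before taking logs, and so does part of its r. Krt79, a keratin of hair follicle and gland ducts, averaged 372, 152 and 24.01 CPM in the same WT media and 254, 128 and 22.1 CPM in KO. Glis1, a zinc finger factor, averaged 9.92, 5.26 and 1.68 CPM in WT. Ppl, which encodes periplakin of the desmosome and cornified envelope, averaged 108, 86.1 and 43.2 CPM in WT, and Cdk6, a kinase of the G1 phase, 91.4, 76.3 and 44.8 CPM. All 5 had WR, EGF-WR and EGF in the order of Runx3 in both genotypes. Without subtraction of batch means their r was 0.913 to 0.941, and Ppl, Cdk6, Dsg1a, Krt79 and Glis1 ranked 2, 3, 8, 19 and 20.

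**Figure D4:**
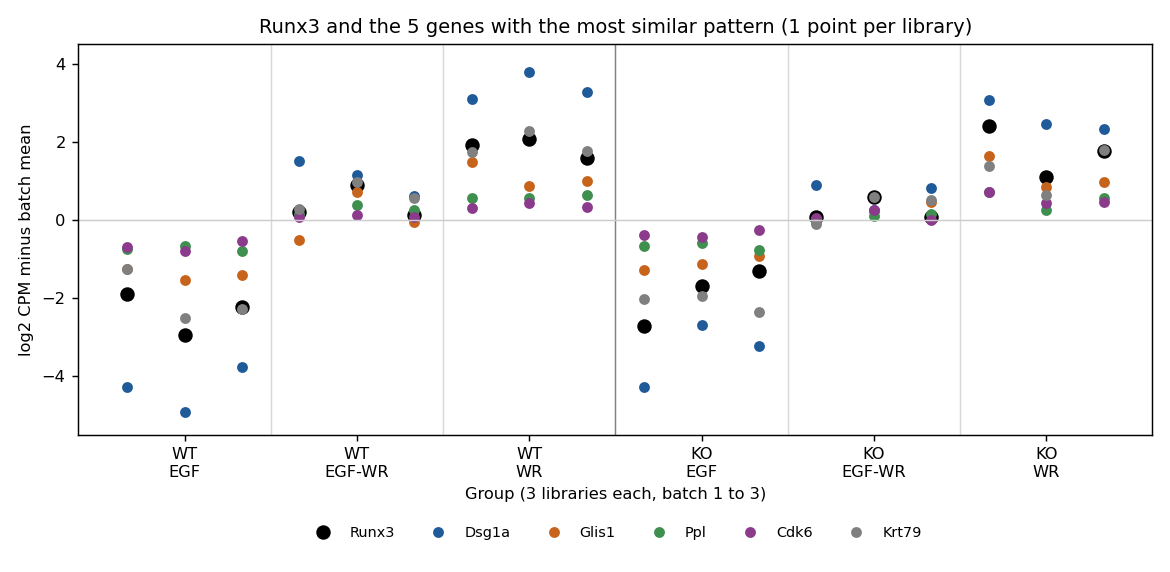
Log2 CPM minus the batch mean (y axis) of Runx3 and the 5 genes most like it, 1 point per library, by genotype and medium. The points of Runx3 and of its 5 like genes lie below 0 in the 6 EGF libraries and above 0 in the 6 WR libraries, with the widest span for Dsg1a and the narrowest for Cdk6 and Ppl. Dsg1a is near 0 CPM in EGF, so the low end of its span depends on the prior count of 2 added before taking logs.

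The nearest genes of the other members were different ones. For Runx2 they were Btbd11, Ahnak, a large scaffold protein, and Abca1, a cholesterol exporter (r of 0.950, 0.948 and 0.942). Abca1 averaged 360 CPM in WT WR, 166 in WT EGF-WR and 271 in WT EGF, the order of Runx2. For Runx1 they were Nuak1, an AMPK-related kinase, Ptprs, a receptor phosphatase, and Il17rb, a subunit of the IL-25 receptor (0.945, 0.940 and 0.922), and for Cbfb G3bp2, a stress granule protein, Prkg2, a cGMP-dependent kinase, and Ctnnbip1, an inhibitor of beta-catenin (0.920, 0.883 and 0.878). Without subtraction of batch means, Ptprs and Il17rb fell to 0.485 and 0.495, while Nuak1 stood at 0.913. Among the members, r with batch means subtracted was 0.71 for Runx1 with Runx2, 0.76 for Runx1 with Runx3, 0.31 for Runx2 with Runx3, and -0.72, -0.67 and -0.64 for Cbfb with Runx1, Runx2 and Runx3. Without the subtraction the value of Cbfb with Runx1 was -0.068.

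Wnt feedback genes, which are induced by beta-catenin and dampen or tune the pathway, were read as a gauge of the medium, and 13 of 16 were tested. In EGF against WR 7 were called lower and 2 higher in each genotype (69.2% of the list, against 15.4% of all genes in WT and 13.5% in KO), with a median log2 difference of -0.66 in WT and -0.74 in KO against -0.011 and -0.016 over all genes. Axin2, a scaffold of the beta-catenin destruction complex and a standard read-out of the pathway, averaged 38.9 ± 17.0 CPM in WT WR, 17.99 ± 8.59 in WT EGF-WR and 4.66 ± 0.338 in WT EGF, and 57.7 ± 32.7, 26.1 ± 17.7 and 6.03 ± 3.93 CPM in KO. Its order of media is that of Runx3. Tnfrsf19 and Nkd1 of the list shared this order of means in both genotypes, and Wif1, Apcdd1, Lgr5 and Notum did not. Wif1 averaged 144 CPM in WT WR and 168 in WT EGF-WR. Lef1, a Wnt-responsive DNA-binding partner of beta-catenin, went the other way, with 0.384 ± 0.433 CPM in WT WR and 7.79 ± 4.74 in WT EGF (log2 difference 5.02 ± 0.82, edgeR adjusted p = 5.99e-04). That call was lost in the fit without the batch term. Adding NGS-Wnt and Rspo2 to EGF left 3 of the 13 called higher and 1, Lef1, called lower in each genotype (30.8% of the list, against 15.6% of all genes in WT and 11.6% in KO). The genes called higher were Axin2, Tnfrsf19 and Wif1. In EGF-WR against WR 2 of the 13 were called lower in WT, and 4 lower and 1 higher in KO. These were 15.4% and 38.5% of the list, against 10.7% and 12.7% of all genes.

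Of 37 genes whose products bind, modify or degrade Runx proteins or Cbfb, 36 were tested. In EGF against WR 4 were called higher and 1 lower in WT, and 6 higher and 1 lower in KO (13.9% and 19.4% of the list, against 15.4% and 13.5% of all genes). Ets1, an Ets factor that binds DNA together with Runx1, rose by 0.79 ± 0.12 in WT and 0.56 ± 0.12 in KO, and Tle2, a Groucho corepressor, by 0.51 ± 0.13 and 0.53 ± 0.13. In EGF-WR against WR 5 were called higher and 4 lower in WT and 6 higher and 3 lower in KO (25% of the list in each, against 10.7% and 12.7% of all genes), and the list's median was 0.00022 and 0.057 against 0.0027 and 0.0039 over all genes. Tle2 and Tle6, another Groucho family member, were among those higher, at 0.66 ± 0.13 and 0.51 ± 0.12 in WT. Myh11, the smooth muscle myosin that is made by myoepithelial cells and is listed as the leukaemia fusion partner of human CBFB, was lower by -0.98 ± 0.23 in WT and -1.21 ± 0.24 in KO. In KO against WT averaged over the media, Tle4, a Groucho corepressor, was the single gene of the list called, higher in KO by 0.30 ± 0.054 (edgeR adjusted p = 0.0147), where 0.339% of all genes were called.

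Of 44 genes described elsewhere as Runx targets, in either direction and mostly in bone, blood or nerve, 30 were tested. In EGF against WR 6 were called higher and 4 lower in WT, and 5 higher and 3 lower in KO (33.3% and 26.7% of the list, against 15.4% and 13.5% of all genes). The list's median log2 difference was 0.16 and -0.057, against -0.011 and -0.016 over all genes. Hey1, a Notch-responsive repressor, rose by 2.34 ± 0.24 in WT and 1.90 ± 0.24 in KO, and Spp1, the matrix protein osteopontin, by 2.03 ± 0.31 and 1.88 ± 0.30. Ntrk2, a neurotrophin receptor, rose by 1.29 ± 0.27 and 1.33 ± 0.28, and Ccnd1, which encodes cyclin D1, fell by a log2 difference of -1.27 ± 0.088 in WT and -1.32 ± 0.088 in KO. In EGF-WR against EGF 3 were called higher and 7 lower in WT, and 3 higher and 6 lower in KO (33.3% and 30% against 15.6% and 11.6% of all genes), with Spp1 at -1.54 ± 0.30 and -1.45 ± 0.30. In EGF-WR against WR 2 were called higher and 4 lower in WT, and 2 higher and 5 lower in KO (20% and 23.3% against 10.7% and 12.7% of all genes), with Hey1 at 1.98 ± 0.24 and 1.80 ± 0.24. Many of these genes also answer to other factors, and the lists were not compared with chance.

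Counts of called list members were lower in the fit without the batch term. In EGF against WR the binding and modifying list had 1 called gene in WT and 0 in KO, the target list 3 in each, and the Wnt feedback list 4 in WT and 6 in KO. The 4 Wnt feedback genes in WT were all called lower, so Lef1 was no longer called there. In EGF-WR against WR these lists had 0, 1 and 1 called genes in each genotype, and in EGF-WR against EGF they had the same counts. The Wnt feedback gene called in EGF-WR against EGF was higher in each genotype, so the call of Lef1 as lower was lost there too. Under this fit the call of Tle4 between genotypes was lost. None of the 3 lists had a called gene in an interaction.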

How the data were processed

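RNA was measured in 18 organoid libraries. The authors deposited read counts per Ensembl gene, whole numbers used here in all tests. A second deposited table gives, per the file headers, a normalized signal per library, which equals the count divided by 1 factor per library (largest deviation 0.0053% for counts of at least 1000), and was used for symbols and GRCm38 positions. Per the submitters' processing notes STAR, DESeq2 and GRCm38 were used; their versions, the annotation release, the strand setting and the counting tool: not given in the sources used here. That table's headers name a batch term.

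Genes were kept with filterByExpr (minimum count 10, minimum total 15), which left 17092 of 55536. Counts were TMM-normalized and fitted in edgeR 4.0.16 (R 4.3.3) with 1 mean per group over all 18 libraries and the batch as a block, and 13 contrasts were tested by its quasi-likelihood F-test (robust and two-sided); p-values were adjusted by Benjamini-Hochberg over all genes of a contrast. A gene was called at an adjusted p under 0.05. An exact permutation test of 3 against 3 cannot go below p = 0.1, so calls rest on the spread shared across groups. Libraries of the same batch deviated together from their group means: 45 pairs of different groups had correlations of 0.175 to 0.453 (median 0.307). Pairs from different batches had a median of -0.157. Deviations sum to 0 within a group, so this negative value follows from the subtraction and adds no evidence of its own. In data simulated for WT EGF against WR on 16691 genes, 65.9% of genes changed by log2 1 and 70.6% of those changed by log2 2 were recovered, with 7 false among 144 calls. The simulation changed a small set of genes in WT EGF alone, and changed genes dropped by the filter counted as missed. Far more genes were called in the real contrast, so these rates need not hold there.

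The 4 genes, the lists, the motifs and the rules for named genes were chosen with earlier results of these data known. Named beside the members were the 5 genes most like Runx3 and 3 for each other member, up to 4 called genes with the largest change per list, overlapping genes and nearest neighbours. Alternatives were no batch block, DESeq2 1.42.0, RLE normalization, no low-count filter, leaving out each library or batch, and, for the levels alone, raw library sizes.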

Additional observations from a re-analysis of the deposited data

How the results depend on the processing

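Calls and directions of the 4 genes were recomputed with DESeq2, RLE normalization and no low-count filter, and no call of a member changed with these. The sign of Cbfb in KO against WT in EGF, -0.0017 in the reported fit, was 0.0019 with DESeq2, 0.0017 with RLE normalization and 0.0023 without the block, and the sign of its interaction of EGF against WR was -0.0029 without the filter; these values lie near 0. Without the batch block, Runx1 was no longer called in EGF against WR (-0.42 in WT, -0.35 in KO) or in EGF-WR against WR (-0.36 and -0.27), nor Runx2 in WT EGF against WR (-0.52); the block changed no other call of a member. Fits without the block called 888, 404 and 369 genes in WT EGF against WR, EGF-WR against WR and EGF-WR against EGF, 729, 439 and 115 in KO, and 5, 6 and 22 in KO against WT in WR, in EGF-WR and over media. DESeq2 called 29, 30, 34 and 190 genes in KO against WT in WR, EGF-WR, EGF and over media, and 1 in the interaction of EGF-WR against WR. The cause was not tested.

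Leaving out a library or a batch in turn gave these log2 ranges. Runx1 ranged over -0.029 to 0.14 in the interaction of EGF against WR, -0.061 to 0.18 in the interaction of EGF-WR against WR, -0.47 to -0.26 in KO EGF against WR, -0.48 to -0.14 in KO EGF-WR against WR, -0.50 to -0.36 in WT EGF against WR and -0.44 to -0.30 in WT EGF-WR against WR. Runx2 ranged over -0.046 to 0.18 in the interaction of EGF-WR against WR, -0.49 to -0.21 in KO EGF against WR, -0.086 to 0.14 in KO against WT in WR and -0.66 to -0.34 in WT EGF against WR. Runx3 ranged over -0.092 to 1.503 in the interaction of EGF against WR, -0.41 to 0.16 in KO against WT in EGF-WR, -0.46 to 0.36 in KO against WT in WR and -0.023 to 0.25 in KO against WT over media. Cbfb ranged over -0.067 to 0.12 in the interaction of EGF against WR, -0.089 to 0.040 in the interaction of EGF-WR against WR, -0.075 to 0.11 in KO against WT in EGF, -0.084 to 0.014 in KO against WT in EGF-WR, -0.060 to 0.059 in KO against WT in WR, -0.042 to 0.022 in KO against WT over media and 0.10 to 0.35 in WT EGF against WR. The number of called genes ranged over 906 to 2008 in KO EGF against WR, 366 to 1472 in KO EGF-WR against EGF, 945 to 1937 in KO EGF-WR against WR, 5 to 12 in KO against WT in EGF, 4 to 12 in KO against WT in EGF-WR, 3 to 13 in KO against WT in WR, 19 to 90 in KO against WT over media, 969 to 2557 in WT EGF against WR, 653 to 2700 in WT EGF-WR against EGF and 785 to 1415 in WT EGF-WR against WR. Fits with fewer libraries also have fewer degrees of freedom. Runx3 in EGF rests on 18 to 72 counts per library, which limits its precision there. With raw library sizes the mean level of each of the 4 genes in each of the 6 groups moved by less than its SD.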
